A study of Mus musculus with 3 samples.

Results

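The genes described here are 10 classic targets of YAP and TEAD, Ankrd1, Ccn2 (older name Ctgf), Ccn1 (Cyr61), Axl, F3, Crim1, Fjx1, Nuak2, Myof and Arhgef17, out of 15394 genes measured in cardiac myofibroblasts. Members were found through the RefSeq transcript that the array design names for each probe, which gave 11 probes, 2 of them for F3 and 1 for each of the others. Myofibroblasts, contractile cells that lay down matrix in scar tissue, came from the hearts of C57BL/6J male mice whose left anterior descending artery had been ligated permanently 3 days earlier. The labels give the age as 8 weeks in one field and 10 weeks at surgery in another. Cells were left to attach to plastic and depleted on a magnetic column of leukocytes, which carry CD45. Compared were adherent cells on plastic plates, non-adherent cells moved into suspension, and re-adherent cells put back on plates after suspension. Each group had 1 array, and each RNA sample was a mixture from several hearts. No difference below therefore has a replicate check or a p-value, and the states followed each other in culture, so that state and time in culture cannot be told apart.

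YAP and its relative TAZ are coactivators without a DNA-binding domain of their own. On stiff supports and in spread cells they enter the nucleus and bind the TEAD factors, which read the element CATTCC. In rounded or crowded cells the Hippo kinases hold them in the cytoplasm. Their best known targets include secreted CCN proteins, the nuclear cofactor Ankrd1 and feedback inhibitors of the pathway itself, and in fibroblasts they are known as part of the response to a stiff matrix. The study used the sequence of attachment, suspension and attachment to find genes that follow mechanical support.

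Promoter windows were available in RefSeq (GRCm38.p6) for 6 of the 10 members, Ankrd1, Axl, Ccn1, Crim1, F3 and Myof, each from 250 bases before to 50 bases after the start. The TEAD element CATTCC, read on both strands, was present in 4 of these 6, against 14.7% of all 32851 promoter windows of the same length. The matches are printed because TEAD factors read this element, and no binding was measured. The element is in capitals and each window runs 5′ to 3′ on the strand of the gene. Ankrd1 held 2 of the matches.

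Ankrd1, chr19:36120037-36120066, minus strand, element 210 bases before the start: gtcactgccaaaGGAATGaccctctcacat
Ankrd1, chr19:36119950-36119979, minus strand, element 123 bases before the start: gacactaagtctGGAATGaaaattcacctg
Ccn1, chr3:145650071-145650100, minus strand, element 103 bases before the start: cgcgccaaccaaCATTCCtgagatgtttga
Crim1, chr17:78200157-78200186, plus strand, element 79 bases before the start: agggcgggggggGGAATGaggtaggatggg
Axl, chr7:25788949-25788978, minus strand, element 233 bases before the start: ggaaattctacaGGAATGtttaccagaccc

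The windows of F3 and Myof held no such letters. F3 held the AP-1 element TGANTCA, a site of Fos and Jun proteins, which 7.81% of all promoter windows share and no other member with a window did. It lay 135 bases before the start in chr3:121723391-121723420 on the plus strand. A second match lay 146 bases before the start, and its letters open the same window in lower case.
F3, element in capitals: tgaatcacggtTGAGTCAcccctttcgggg
The CArG box of the factor SRF was found in none of the 6 windows and in 1.63% of all of them. These matches describe letters in short windows, and sites farther away were not searched.

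Signals are given in intensity units of the scanner software before scaling, and differences on the log2 scale after each array was scaled to its 75th percentile, which was 651 units on the adherent, 697 on the non-adherent and 541 on the re-adherent array. The technical error of a difference combines the errors that the software assigned to both spots. It was 0.20 for the median gene in each pair of arrays and between 0.20 and 0.25 for the members. It leaves out variation between cultures and animals. All 10 members were well above background on all 3 arrays, so none of their differences rests on a bound. A gene is said to have fallen or risen where the difference passed 2-fold.

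In suspension 7 of the 10 members fell over 2-fold and none rose, where 14.7% of all genes fell and 17.2% rose. Ankrd1, Crim1, Ccn1 and Ccn2 fell over 16-fold, as 1.03% of all genes did, although Ccn2 stayed just short of it without scaling, with the authors' values and with quantile normalisation, at -3.92 with the last. With Axl, 5 members fell over 4-fold, against 5.34% of all genes, and Nuak2 and F3 fell by less. On re-adhesion 6 members rose, against 15.6% of all genes, and none fell, against 16.3%. Over 4-fold, 5 members rose, against 5.7% of all genes. These 6 that rose over 2-fold, all members except F3, Fjx1, Myof and Arhgef17, had also fallen before. Loss and regain over 2-fold on both steps was seen in 11.2% of all genes, and over 16-fold, the rule of the study, in 4 members and 0.806% of all genes. This count depends on the scaling, since Ankrd1 alone passed on both steps with the authors' values, where 0.663% of all genes did, and without scaling. The median difference of the members was -1.93 in suspension and 2.10 on re-adhesion, beside -0.07 and 0.08 for all genes. Both steps share the non-adherent array, so an error of that array enters both with opposite sign.

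**Figure D1:**
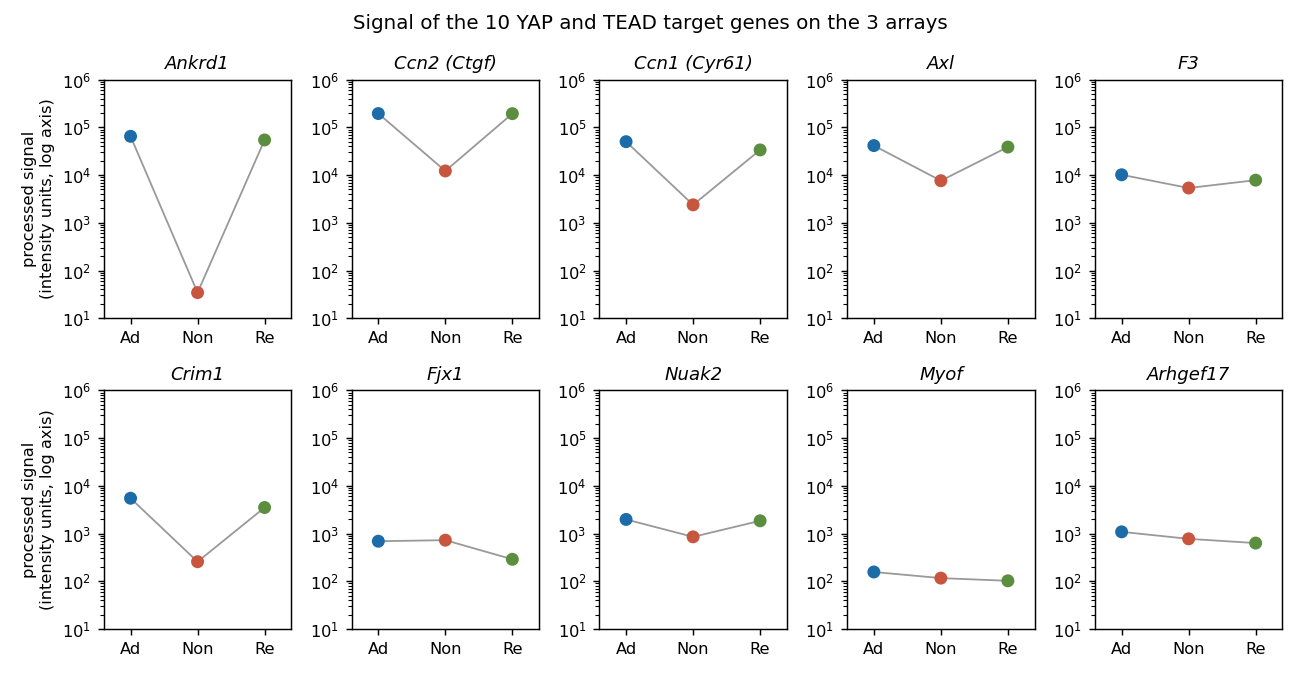
Processed signal (intensity units before scaling, log axis) of each member on the 3 arrays, ordered as plate (Ad), suspension (Non) and plate again (Re), with 1 point per array and no error between replicates. Ankrd1 drops from 65115 to 34.4 units and returns to 54636, while Fjx1, Myof and Arhgef17 stay within 2-fold on the first step.

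Ankrd1 encodes a cardiac ankyrin repeat protein that acts in the nucleus as a cofactor and in muscle binds titin. Its signal was 65115 units on the adherent, 34.4 on the non-adherent and 54636 on the re-adherent array. The non-adherent array was the single low one, close to the lowest signal called well above background there, 14.0 units. Ankrd1 fell by 10.98 in suspension with a technical error of 0.25, or 2026-fold, and rose by 10.997, or 2044-fold, on re-adhesion. Each was the largest change in its direction among all 15394 genes. So near to the background the fold depends on how the background is removed, and with the normexp correction the differences were -9.39 and 9.37. Of its relatives, Ankrd23 differed by 0.21 on the first and -0.94 on the second step with its brighter probe and by -0.04 and -0.10 with the other, and Ankrd2 stayed at background on all 3 arrays.

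The secreted members are Ccn1 and Ccn2, matricellular proteins that bind integrins. Ccn1 gave 50278 units on the adherent, 2382 on the non-adherent and 33746 on the re-adherent array. It fell by 4.50 in suspension and rose by 4.19 on re-adhesion, with a technical error of 0.20 for each. Ccn2, which encodes connective tissue growth factor, gave 195458, 12232 and 194382 units on the same arrays. It fell by 4.10, or 17.1-fold, and rose by 4.35, or 20.5-fold. Both genes were high on the plates and low in suspension, yet both remained far above background there. The other family members that passed the filter moved in the same way. Ccn4 fell by 3.77 and rose by 4.68, Ccn5 fell by 3.14 and rose by 3.66, and Ccn3 fell by 2.77 and rose by 1.90, while Ccn6 stayed at background throughout. Ccn4 ended 0.91 above its adherent level and Ccn3 ended at -0.87 against it.

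Crim1 encodes a membrane protein with cysteine-rich repeats that bind bone morphogenetic proteins. Its signals were 5492 units before, 256 in and 3508 after suspension, with the non-adherent array the low one. It fell by 4.52 in suspension with a technical error of 0.21, 22.9-fold, and rose by 4.14, or 17.6-fold. Secreted binders of the same ligands did not share this: Bmper differed by 0.16 and Chrd by -0.25 in suspension, and Kcp rose by 1.66 and then fell by 3.71, while Chrdl1 was not measured above background.

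Axl is a receptor tyrosine kinase of the family that binds Gas6 and protein S on dying cells. Its signals were 41605 units on the adherent, 7638 on the non-adherent and 38807 on the re-adherent array. Both plate arrays were high. Axl fell by 2.54, or 5.83-fold, and rose by 2.71, or 6.54-fold, with a technical error of 0.20. The other receptors of the family went the other way or moved little in suspension. Mertk rose by 1.33 and Tyro3 differed by 0.37. The ligand gene Gas6 rose by 2.94, from 20419 to 168199 units, then fell by 2.26, and Pros1 differed by 0.80 before it fell by 1.53. Mertk is also a macrophage marker, and 12 of 13 measured macrophage markers rose over 2-fold in suspension, against 17.2% of all genes. The exception was Itgam, with -0.84 for its brightest probe but 1.63 and 1.96 for its others.

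F3 encodes tissue factor, the membrane protein that starts blood coagulation by binding factor VII. Its brighter probe gave 10171 units before, 5370 in and 7842 after suspension, with the lowest value in suspension. The difference of -1.02 in suspension stood just past 2-fold, its technical error was 0.20, and the rise of 0.91 on re-adhesion stayed short of it. The second probe gave -1.20 and 0.82. The first difference was below 2-fold with the authors' values, with unscaled signals, with median scaling and with quantile normalisation, at -0.92 for the first pair of these, so the call for F3 depends on the scaling. The member just outside 2-fold was Arhgef17 at -0.58. Around it, F7, the gene for factor VII, rose by 2.37 and then fell by 4.23, while the probes of F10, the gene for factor X, disagreed, with 0.51 and -0.96 for the brighter and 2.76 and -4.02 for the other. The inhibitor gene Tfpi fell by 1.67 and rose by 1.45, Tfpi2 fell by 2.60 and rose by 1.63, and Thbd, the gene for thrombomodulin, fell by 1.61 and stayed low, with 0.31 on the second step.

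Nuak2 encodes a kinase related to the energy sensor AMPK. Its signals were 1974 units on the adherent, 851 on the non-adherent and 1848 on the re-adherent array. It fell by 1.31 in suspension, or 2.48-fold, and rose by 1.48, or 2.79-fold, and its relative Nuak1 fell by 2.24 and rose by 2.03. Both kinases of this pair were thus lower in suspension and higher again on plates.

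The remaining members did not pass 2-fold in suspension. Myof, a ferlin that takes part in membrane repair, gave 156 units before, 116 in and 102 after suspension, with differences of -0.52 and then 0.18. The related Dysf fell by 2.08 and rose by 2.52, whereas Otof differed by -0.07 on both steps. Arhgef17 gave 1084, 774 and 630.3 units and differed by -0.58 and 0.07. For Myof and Arhgef17 the first difference was over 2 times its technical error, and on the second step the sign of both turned without scaling, to -0.19 and -0.30, and with the authors' values and spike-in scaling.

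Fjx1 encodes a Golgi kinase related to four-jointed of the fly, which modifies cadherins of the Fat and Dachsous type. It had a pattern of its own after scaling, since among the members only its scaled signal was lowest on the re-adherent array. Before scaling the signals of Myof and Arhgef17 were lowest there too. Fjx1 gave 689.8, 725 and 288 units. In suspension it differed by -0.03, below its technical error of 0.20, and normexp, median scaling, unscaled signals and the authors' values turned this sign. The second step gave -0.97, so that Fjx1 stood at -0.99 relative to its start, with a technical error of 0.21. Of its partners, Fat4 fell by 1.63 and then gave 0.96, and Dchs1 rose by 2.66 and fell by 3.76.

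**Figure D2:**
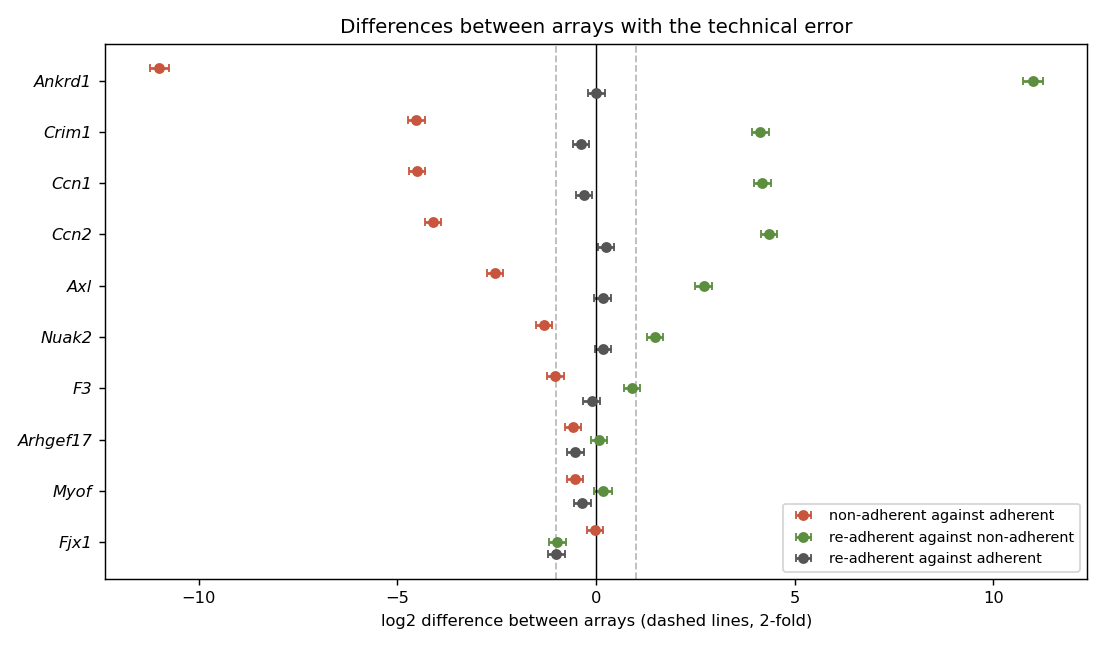
Log2 differences of each member between arrays (horizontal axis), with bars for the technical error of the scanner software and dashed lines at 2-fold, members ordered by the change in suspension. The first 5 members from the top move over 4-fold down and up, and all 10 lie within 2-fold of their adherent level on the re-adherent array, Fjx1 at its edge and past it under other scalings, which also turn the signs of Ankrd1, Ccn2, Axl and Nuak2 there.

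By size of the change in suspension the order was Ankrd1, Crim1, Ccn1, Ccn2, Axl, Nuak2, F3, Arhgef17, Myof and Fjx1. The gap of 6.47 between Ankrd1 and Crim1 was far beyond the technical error of that gap, 0.32. Crim1 and Ccn1 differed by 0.02 with an error of 0.29, and Arhgef17 and Myof by 0.06 with an error of 0.29, so these neighbours were not told apart. The gaps from Ccn2 to Axl, 1.55, and from Axl to Nuak2, 1.23, were several times their errors of 0.29.

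The 6 members that had fallen and risen over 2-fold ended within 2 technical errors of their adherent level, as scaled here. On the re-adherent array 4 members lay within 1 technical error of the adherent level, namely Ankrd1 at 0.01, Axl at 0.17, Nuak2 at 0.17 and F3 at -0.11. Ccn2 at 0.26, Ccn1 at -0.31, Crim1 at -0.38 and Myof at -0.35 lay within 2 errors. Arhgef17 at -0.52 and Fjx1 at -0.99 lay lower by more than that. None of the 10 members passed 2-fold, although Fjx1 did under 4 other settings of the scaling. Most genes also stayed within 2-fold, since 4.9% of all genes were lower and 4.84% were higher. The median of the members was -0.21 against 0.06 for all genes. In percent of the adherent signal after scaling, Ankrd1 went from 0.0494% in suspension to 101% on re-adhesion, Ccn1 from 4.43% to 80.7%, Ccn2 from 5.85% to 120%, Crim1 from 4.36% to 76.8% and Axl from 17.2% to 112%. The signs for Ankrd1, Ccn2, Axl and Nuak2 in this comparison turned under other scalings, and with spike-in scaling all 10 members were below 0, where the median of all genes was -0.41. The signs of the other 6 held under all 12 alternatives.

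Of 8 genes for the coactivators, the TEAD factors and their cofactors, 7 fell over 2-fold in suspension and rose again. Of all genes 11.2% did so. Yap1 fell by 1.74 and rose by 1.74, and Wwtr1, the gene for TAZ, fell by 1.08 and rose by 1.19. All 4 TEAD genes fell in suspension, Tead1 by 3.72, Tead2 by 1.45, Tead3 by 2.27 and Tead4 7.27-fold as measured. Vgll3, a cofactor that binds TEAD proteins, measured 46.8-fold lower in suspension. The suspension signals of Tead4 and Vgll3 were not well above background, and the technical error of each difference was 0.39 on the log2 scale. Vgll4, a cofactor that competes with YAP for TEAD, rose by 1.41 and fell by 1.02. Of 14 genes of the Hippo core, 6 fell in suspension, and 0 rose, against 14.7% and 17.2% of all genes. The angiomotin gene Amotl2 and the adaptor gene Wwc1 changed most. Amotl2 fell by 5.002 and rose by 4.50, and Wwc1 fell by 3.92 and rose by 3.97. The kinase gene Stk4 was the single one above 0 in suspension, at 0.76 with its brighter probe and 0.14 with the other.

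The members belong to a signature of 22 YAP and TEAD targets. Of the other 12 genes of that signature, 6 fell over 2-fold in suspension and 3 rose, against 14.7% and 17.2% of all genes. Their median was -0.85. Beside Amotl2, given above, the largest fall by the brightest probe of each gene was that of Ptpn14, a phosphatase that restrains YAP. Ptpn14 fell by 2.37 and rose by 2.33. Foxf2 fell by 2.33 with a technical error of 0.25 and rose by 2.51, so the falls of Ptpn14 and Foxf2 were not told apart. The dimmer probe of Lats2 moved further, with -2.85 and 3.04, against -1.98 and 1.90 for its brighter probe. In the opposite direction Igfbp3, an IGF-binding protein, rose by 3.76. On re-adhesion it fell 61.2-fold as measured, to a signal not well above background, with a technical error of 0.36 on the log2 scale. Gadd45a, a stress and growth arrest gene, rose by 2.09 and fell by 1.61. Nt5e, an ectoenzyme gene named after its value was seen, rose by 1.46 and fell by 1.93. The members held no gene that rose over 2-fold in suspension and the other 12 held 3, where 17.2% of all genes rose. With so few genes these counts allow no reading against that share, and their difference was not tested.

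**Figure D3:**
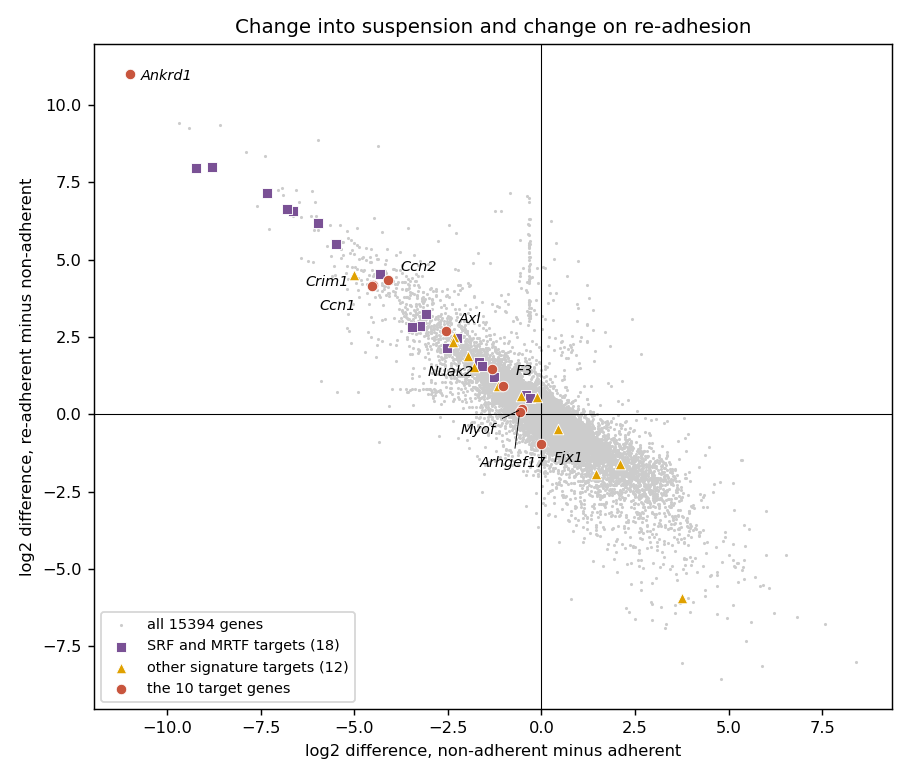
Log2 difference of every gene between the non-adherent and adherent arrays (horizontal) and between the re-adherent and non-adherent arrays (vertical), with the members, the other 12 targets of the signature and 18 targets of SRF and MRTF marked. Ankrd1 lies alone at -10.98 and 10.997, and Fjx1 lies below 0 on the vertical axis. Both axes share the non-adherent array, so an error of that array enters both with opposite sign.

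SRF and its cofactors MRTF form the other transcription pathway that reads the actin cytoskeleton, and Ankrd1, Ccn1 and Ccn2 are described as targets of both. Of 18 measured SRF and MRTF targets, 16 fell in suspension and 16 rose on re-adhesion, against 14.7% and 15.6% of all genes. Their medians were -3.34 and 3.06, beside -1.93 and 2.10 for the members. The largest changes among them were those of Actg2, which fell by 9.24 and rose by 7.96, and Cnn1, which fell by 8.80 and rose by 7.99. Tgfb1i1 could not be measured by a matched probe. Nearest genes were sought among 13477 genes well above background on all 3 arrays, a number that includes the gene itself. Distance was Euclidean over the log2 changes into suspension and on re-adhesion. The genes nearest to Ankrd1 were Actg2, Cnn1 and Slc1a6, at distances of 3.50 to 3.98, so no gene lay close to Ankrd1. Nearest to Ccn1 were Crim1, itself a member, at 0.05, Gata3 at 0.08 and Arhgdig at 0.12. Nearest to Ccn2 were Htr2a at 0.13, Ttll11 at 0.21 and Rab30 at 0.22. Likeness over 3 arrays rests on little and says nothing of shared function.

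**Figure D4:**
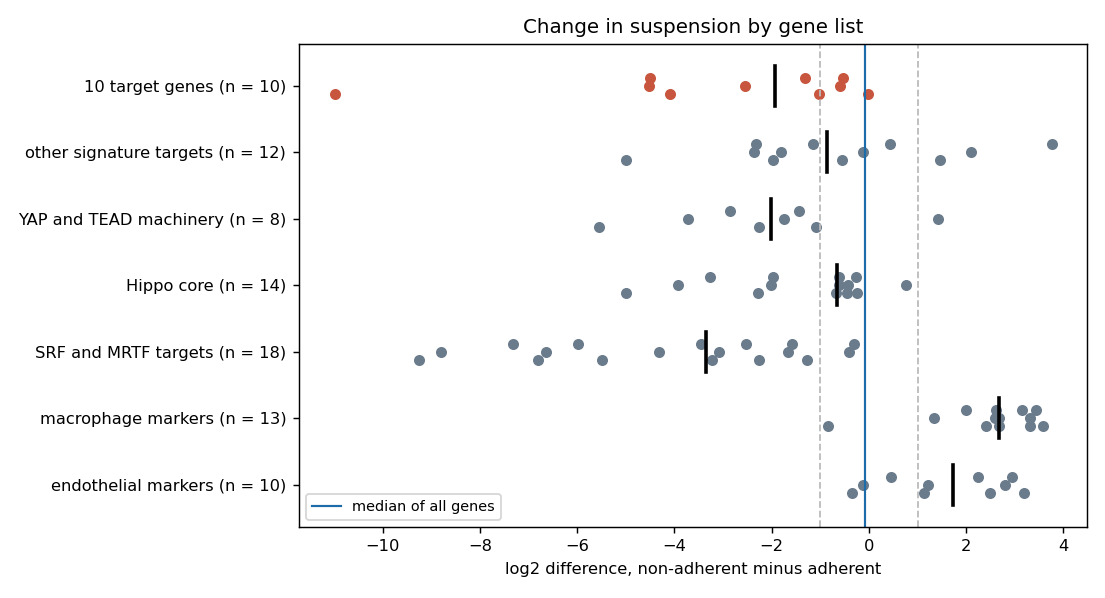
Log2 difference between the non-adherent and adherent arrays for each gene of 7 lists (points), the median of each list (black bar), the median of all genes (blue line, -0.07) and 2-fold (dashed lines). The 10 target genes lie below 0, although the sign of Fjx1 turned with the scaling, the median of the SRF and MRTF targets, -3.34, lies lower than theirs, -1.93, and macrophage and endothelial markers lie mostly above 0.

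The make-up of the cells was read from markers on the same arrays. All 10 fibroblast markers were well above background on every array, among them Acta2, Postn and Col1a1. In suspension 5 of these 10 fell and 2 rose, against 14.7% and 17.2% of all genes. Of 13 measured macrophage markers all were well above background on all 3 arrays, Ptprc, the gene for CD45, included. Their summed scaled signal, in multiples of the 75th percentile, was 187 on the adherent, 1135 on the non-adherent and 393 on the re-adherent array. Endothelial markers summed to 23.7, 37.1 and 22.3, with 9, 10 and 7 of them well above background. On the re-adherent against the adherent array 6 of the 10 were over 2-fold lower and 0 higher. Of all genes 4.9% were lower and 4.84% higher there, and the median of these markers was -1.77. In suspension 7 of 10 were over 2-fold higher, against 17.2% of all genes. The probes of Kdr among them disagreed, with -0.35 for the brighter and 1.96 for the other. The brighter probe, with 9446, 7939 and 10321 units on the 3 arrays, made up a large part of the endothelial sums. Cardiomyocyte markers, which matter for Ankrd1 as a gene of heart muscle, summed to 1.26, 2.02 and 3.41 over 6 measured genes. Most of that came from Tnnt2, the gene for cardiac troponin T, named after its values were seen, with 593 units on the adherent, 955 on the non-adherent and 1646 on the re-adherent array. Tnnt2 differed by 0.59 in suspension and rose by 1.15 on re-adhesion. The other 5 measured genes gave at most 207 units on any array, and Actn2, Ryr2 and Pln stayed at background on all 3 arrays. Mural cell markers summed to 52.4, 70.2 and 48.1, with 5, 7 and 4 of 7 well above background. Between the plate arrays 3 of these 7 were over 2-fold lower after re-adhesion and 0 higher, against 4.9% and 4.84% of all genes. In RNA from a whole culture, fewer cells of a type and less RNA per cell cannot be told apart, and the part of these shifts in the members' changes was not tested.

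**Figure D5:**
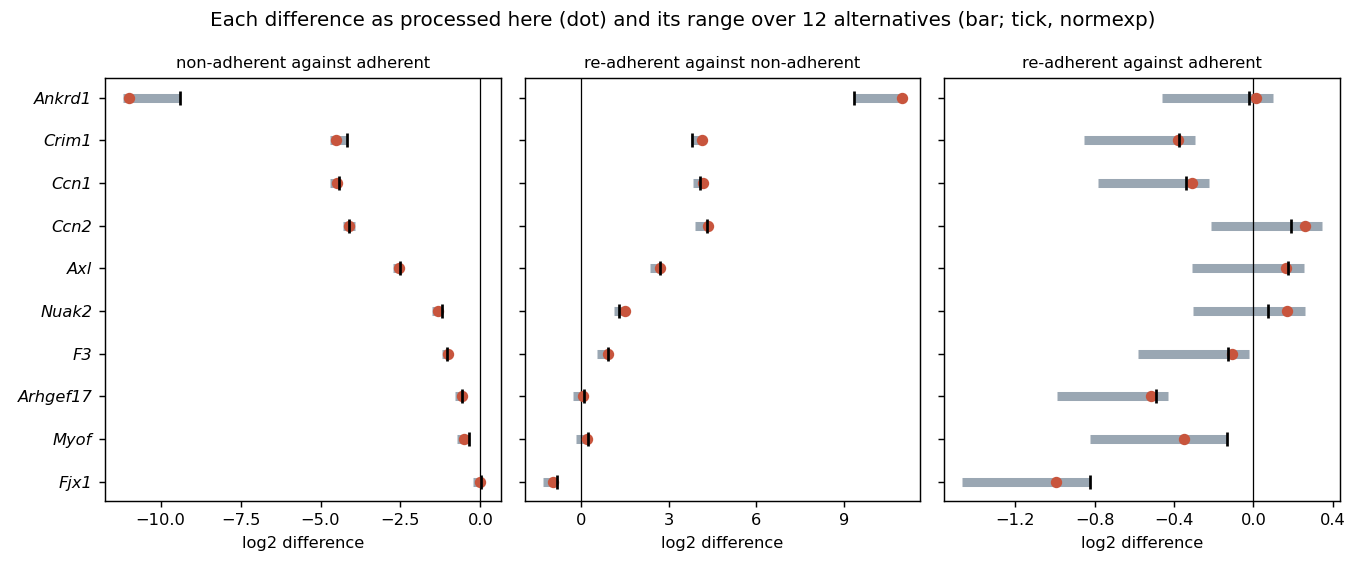
Log2 difference of each member as processed here (dots), its range over 12 alternative ways of processing (grey bars) and its value with the normexp background correction (black ticks), for the 3 pairs of arrays, each with its own horizontal scale. The 7 members that fell stay below 0 throughout in the first pair, and in the third pair the bars of Ankrd1, Ccn2, Axl and Nuak2 cross 0.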

How the data were processed

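RNA of adherent, non-adherent and re-adherent cardiac myofibroblasts was hybridised to 1-colour Agilent SurePrint G3 mouse arrays, 1 per group, on the same slide and in the same scan per the file headers. The deposited scanner files hold spot intensity from Agilent Feature Extraction 10.10.1.1, background-subtracted and detrended by the authors' software. The authors' value table equals that intensity times 1 constant per array (1.52, 1.52 and 1.62) and was kept as an alternative. Here flagged spots of 59305 non-control spots were left out (154 to 180 per array, none saturated), spots of the same probe were averaged and log2 signals were reduced by each array's 75th percentile. Array designs name transcripts, and 27229 of 55665 probes matched a RefSeq symbol. Probes well above background on at least 1 array entered, and the brightest probe stood for its gene. Around the members' spots, the median difference of neighbouring spots departed from that of all spots by -0.13 to 0.22. For a gene not well above background on 1 array, the dim side of the fold was set to its measured value. Where the detection limit of that array (the dimmest probe called well above background) was higher, that limit was used and the fold is a lower bound. A fold from the measured value is a ratio with its technical error and not a strict bound.

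The members and gene lists were chosen with earlier results of these data known. Genes were named by rule: all 10 members, listed pathway, family and partner genes, the largest changes of the longer lists, and the 3 genes nearest to Ankrd1, Ccn1 and Ccn2. The normexp alternative (limma 3.58.1, offset 50) used the median signals of the spots. Other alternatives were the authors' values, other scalings, quantile normalisation, other filters on dim or flagged spots and the mean over the probes of a gene. The calculation was tested on simulated arrays. The number of arrays limits the precision.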

Additional observations from a re-analysis of the deposited data

How the results depend on the processing

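No paired analysis was possible because the groups hold a single array each, and for that reason no replicate could be left out. Spike-in scaling was chosen after seeing the data. Counts of members over 2-fold stayed within 1.5 times, except those of lower members in the comparisons of re-adherent with non-adherent and with adherent cells. Each was 0 and became 1, which was Fjx1, with the authors' values, without scaling, with the 75th percentile over probes well above background on all 3 arrays, with spike-in scaling and at 1.5-fold. The 4 members past 16-fold on both steps became 1, Ankrd1, with the authors' values and without scaling, and 2 with quantile normalisation and with spike-in scaling. The median of the members on re-adhesion, 2.10, was 1.82 with the authors' values, 1.73 without scaling and 1.82 with spike-in scaling. Against the adherent array their median of -0.21 was -0.48 without scaling and -0.68 with spike-in scaling. Of 360 single values under alternatives, 63 moved by more than the technical error, and no value past 2-fold changed sign. For all genes, spike-in scaling gave 12.3% lower and 2.27% higher in re-adherent than in adherent cells, and unscaled signals gave 23.4% lower and 9.9% higher on re-adhesion.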
